A study of Sus scrofa with 150 samples.

Results

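Matrix and contractile genes of the liver's stroma were followed across the livers of 150 pigs, with 1 Affymetrix Porcine Genome Array per pig. The 10 listed genes were PRELP, MYL9, COL1A1, COL1A2, COL3A1, DCN, LUM, ACTA2, TAGLN and MYO1C. Members were the probe sets that the array annotation names for 1 of these symbols alone. No probe set carries COL1A1 alone, so 9 genes were measured, by 11 of the 23999 probe sets that are not controls. COL1A2 and DCN had 2 probe sets each, and the dimmer of them is called dim here. Members were chosen by role, with the slopes on drip loss in these same livers in view. In p for drip loss MYO1C ranked 1, MYL9 5 and PRELP 13 of the 23999 probe sets, so the drip loss values of these 3 genes are a description and are given without a test.

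All pigs were commercial crossbreds, Pix(DLxDE) in the labels' spelling, slaughtered at a mean end weight of 110 kg, with no treatment, no control and 1 group. Each pig had 2 traits measured on the long back muscle. Drip loss, the water that hung muscle loses, averaged 5.54% of the weight (SD 2.12, n = 150), and fat area averaged 15.2 cm2 (SD 3.25, n = 150). The labels name neither sex, family, age nor array batch.

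Most liver tissue is hepatocytes, and the stroma is a small part of it. Hepatic stellate cells sit beside the sinusoids, store vitamin A, and on injury turn into cells that lay down fibrillar collagen and make smooth muscle actin. Portal fibroblasts and the smooth muscle of arteries and portal veins also make matrix and contractile proteins. DCN, LUM and PRELP are small leucine-rich proteoglycans that bind collagen, COL1A2 and COL3A1 are chains of fibrillar collagens, and ACTA2, TAGLN and MYL9 belong to the contractile machinery of smooth muscle. MYO1C is a membrane-bound single-headed myosin found in many cell types.

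Array medians lay between 5.79 and 6.09 on the log2 scale, every array had the same lowest value of 4.09, and 2.75% of all values lay there. In 13 arrays the median correlation with the others was over 3 median absolute deviations below that of all arrays. The number in the titles was used as a possible order, in 10 blocks of 100 numbers that held 6 to 24 pigs each. Of the stellate cell and fibroblast markers listed, 8 of 18 were measured, so the cell type behind a member could be checked only in part. In whole tissue, fewer cells of a type and less RNA per cell cannot be told apart.

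ACTA2, smooth muscle actin, varied most among the members. Its level was 8.18 in the lowest liver, 9.94 at the median and 11.81 in the highest on the log2 scale, a 12.4-fold span of the deposited signal. Its SD of 0.819 over the 150 livers was above that of 99.3% of all probe sets. TAGLN, the actin-binding protein transgelin, was at 6.63 in the lowest liver, 7.99 at the median and 9.48 in the highest, a 7.21-fold span, and its SD of 0.62 was above that of 97% of probe sets. MYL9, the regulatory light chain of smooth muscle myosin, was at 6.55, 7.4 and 8.4 in the lowest, median and highest liver. Its SD of 0.298 was above that of 63.2% of probe sets.

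The matrix members divided into probe sets with clear signal and probe sets near the floor of the array. DCN, decorin, was at 5.92 in the lowest liver, 7.61 at the median and 9.19 in the highest on the log2 scale, with an SD of 0.501. PRELP was at 7.27, 8.03 and 9.34, with an SD of 0.357. LUM, lumican, was at 4.09, 4.5 and 5.84, and 18 of 150 livers lay at the lowest value. The dim DCN probe set lay at the lowest value in 72 livers and reached 4.7, so it carried little signal. COL3A1 was at 4.85 in the lowest liver, 5.76 at the median and 6.85 in the highest, so its median was under the lowest array median. The brighter COL1A2 probe set was at 9, 9.9 and 10.3, and the dim one at 4.32, 4.92 and 5.56. The SD of the brighter COL1A2 probe set, 0.211, was above that of 26.4% of probe sets. Levels of different probe sets are not comparable with each other.

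**Figure D1:**
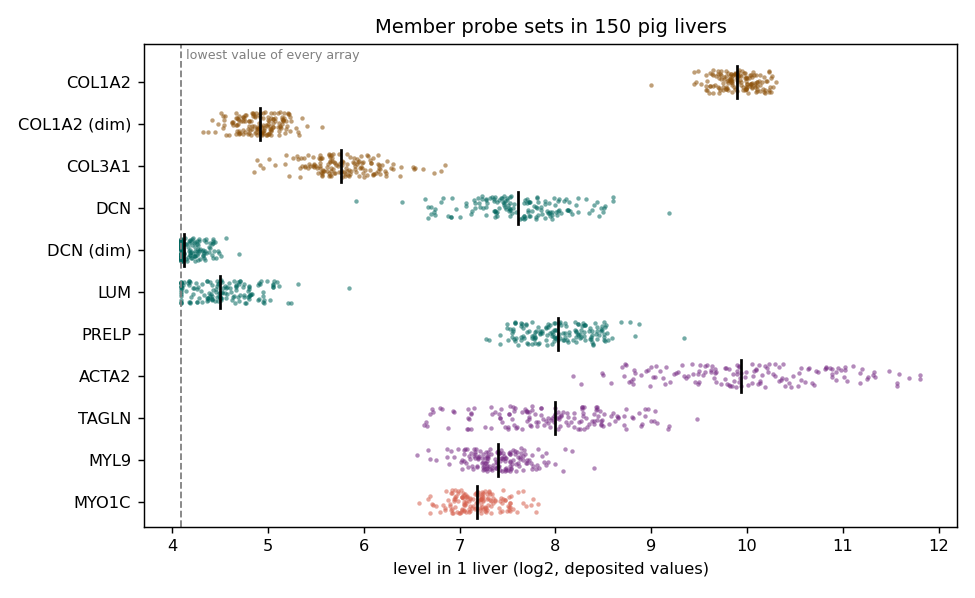
Level of each of the 11 member probe sets (rows) in each of the 150 livers (1 point per liver, scattered vertically for view), on the deposited log2 scale. Black bars are medians and the dashed line is the lowest value of every array, 4.09. ACTA2 spans 8.18 to 11.81, while LUM and the dim DCN probe set lie against the lowest value.

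The first question was whether the members rise and fall together across livers. They did so in part. Of the 36 pairs of the 9 genes, each taken by its brighter probe set, 16 had a correlation past the test, 14 of them positive. The test was a two-sided permutation test of Pearson's r with 100000 resamples, whose smallest possible p is 1e-05, adjusted over the 36 pairs by Benjamini-Hochberg. The median r over the 36 pairs was 0.0875, so most pairs were weakly related or unrelated.

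The contractile genes moved together. ACTA2 and TAGLN had r = 0.844 and rho = 0.838 (permutation p = 1e-05 for each, adjusted p = 3.6e-05, n = 150). Of the 15 livers with the highest ACTA2, 9 were also among the 15 with the highest TAGLN, and 11 were shared among the 15 lowest. TAGLN and MYL9 had r = 0.702 and rho = 0.694, and ACTA2 and MYL9 had r = 0.592 and rho = 0.584 (permutation p = 1e-05, adjusted p = 3.6e-05 for each). Without the 2 livers farthest from the median of the first gene of a pair these r values were 0.837, 0.686 and 0.575. Within the 10 title blocks r was positive in 10 of 10 for each of these 3 pairs. With the array median as a covariate the r values were 0.832, 0.678 and 0.548.

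MYO1C moved with the contractile members ACTA2, TAGLN and MYL9 although it is not confined to smooth muscle. Its level was 6.58 in the lowest liver, 7.18 at the median and 7.82 in the highest, and its SD of 0.247 was above that of 44.6% of probe sets. It had r = 0.668 and rho = 0.617 with MYL9, r = 0.595 and rho = 0.567 with TAGLN, and r = 0.534 and rho = 0.506 with ACTA2 (permutation p = 1e-05, adjusted p = 3.6e-05 for each r and rho). Without 2 livers r was 0.639, 0.581 and 0.507. Given the array median r was 0.634, 0.555 and 0.439. Within blocks r ranged from -0.0475 to 0.942 for MYL9, from -0.336 to 0.877 for TAGLN and from 0.0818 to 0.803 for ACTA2. It was positive in 9, 9 and 10 of the 10 blocks. Among all 23998 other probe sets MYL9 ranked 8 in r with MYO1C, TAGLN 95 and ACTA2 318.

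Among the matrix genes DCN and PRELP moved together. Their r was 0.586 and rho 0.562 (permutation p = 1e-05, adjusted p = 3.6e-05, n = 150), 0.545 without 2 livers, 0.619 given the array median, and positive in 10 of 10 blocks, from 0.317 to 0.843. Given ACTA2 and TAGLN, the partial r of DCN and PRELP was 0.533. Given DCN and PRELP, that of ACTA2 and TAGLN was 0.829, so neither pair's relation went away with the other pair held constant.

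PRELP also moved with the contractile genes, and DCN passed the test with 2 of them. PRELP had r = 0.479 and rho = 0.505 with MYO1C, r = 0.45 and rho = 0.437 with TAGLN, r = 0.436 and rho = 0.421 with MYL9 (adjusted p = 3.6e-05 for each), and r = 0.313 and rho = 0.298 with ACTA2 (adjusted p = 0.000164 for r and 0.000524 for rho, permutation tests). Without 2 livers r was 0.529, 0.44, 0.427 and 0.302. DCN had r = 0.276 and rho = 0.268 with TAGLN (adjusted p = 0.0015 for r and 0.00294 for rho) and 0.26 without 2 livers. With ACTA2 DCN had r = 0.187 and rho = 0.182 (adjusted p = 0.0485 for r and 0.0571 for rho), so rho did not pass. Its r was 0.151 without 2 livers (adjusted p = 0.152), 0.177 with the title spline (adjusted p = 0.0656), 0.174 with the mean of the probe sets of a gene (adjusted p = 0.0645) and 0.257 given the array median (adjusted p = 0.00357), so the call changed with the setting. With MYL9 and MYO1C DCN did not pass (r = 0.104 and 0.0813). The difference between PRELP and DCN in these correlations was not tested.

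LUM, encoded beside DCN in the pig genome (assembly Sscrofa11.1), had r = 0.299 and rho = 0.262 with DCN (adjusted p = 0.00063 for r and 0.00319 for rho, permutation tests), 0.282 without 2 livers, and positive r in 10 of 10 blocks. This was 1 of the 8 pairs of LUM, and the others did not pass, with r from -0.0866 to 0.144. With 18 livers at the lowest value the measured range of LUM is cut off, so these r values describe its measurable part.

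The brighter COL1A2 probe set and COL3A1 had no positive correlation past the test with another member. Of the 14 pairs of COL1A2 or COL3A1 with the other members 0 had a positive r past the test, and r ran from -0.265 to 0.144. COL1A2 and COL3A1 themselves had r = 0.0706 and rho = 0.0739 (permutation p = 0.391 and 0.368, adjusted p = 0.479 and 0.53), and 0.0582 without 2 livers. The 2 pairs past the test were negative and with MYO1C. COL1A2 had r = -0.265 and rho = -0.265 with MYO1C (adjusted p = 0.00226 and 0.00291), and -0.253 without 2 livers. COL3A1 had r = -0.241 and rho = -0.234 with MYO1C (adjusted p = 0.00708 and 0.00917), and -0.204 without 2 livers. Given the array median r of COL3A1 and MYO1C was -0.0105 (adjusted p = 0.899). Under quantile normalization r of COL1A2 and MYO1C was -0.117 (adjusted p = 0.275).

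The 2 probe sets of a gene did not measure the same pattern. The COL1A2 probe sets had r = 0.0624 and rho = 0.0864 with each other (permutation p = 0.446 and 0.291), and 0.0999 without 2 livers. The dim one rose with PRELP (r = 0.313, adjusted p = 0.00153 by limma over all probe sets) and with DCN (r = 0.282, adjusted p = 0.0274). These r values stand against -0.069 and 0.117 for the brighter one. The DCN probe sets had r = 0.0433 and rho = 0.0937 (permutation p = 0.598 and 0.255), and 0.0723 without 2 livers. Which of the COL1A2 probe sets follows the COL1A2 transcript was not tested, so its values hold for the probe set named.

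**Figure D2:**
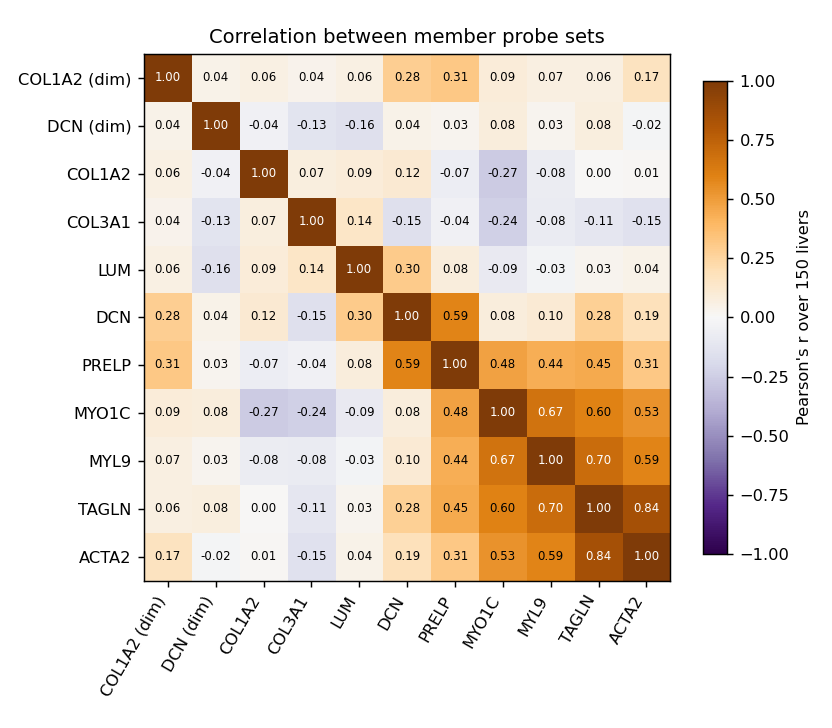
Pearson's r over the 150 livers between the 11 member probe sets, printed in each cell and coloured from -1 to 1. The lower right block holds MYO1C, MYL9, TAGLN and ACTA2, at 0.53 to 0.84, next to DCN with PRELP at 0.59, while LUM reaches 0.30 with DCN and the dim COL1A2 probe set 0.31 with PRELP.

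**Figure D3:**
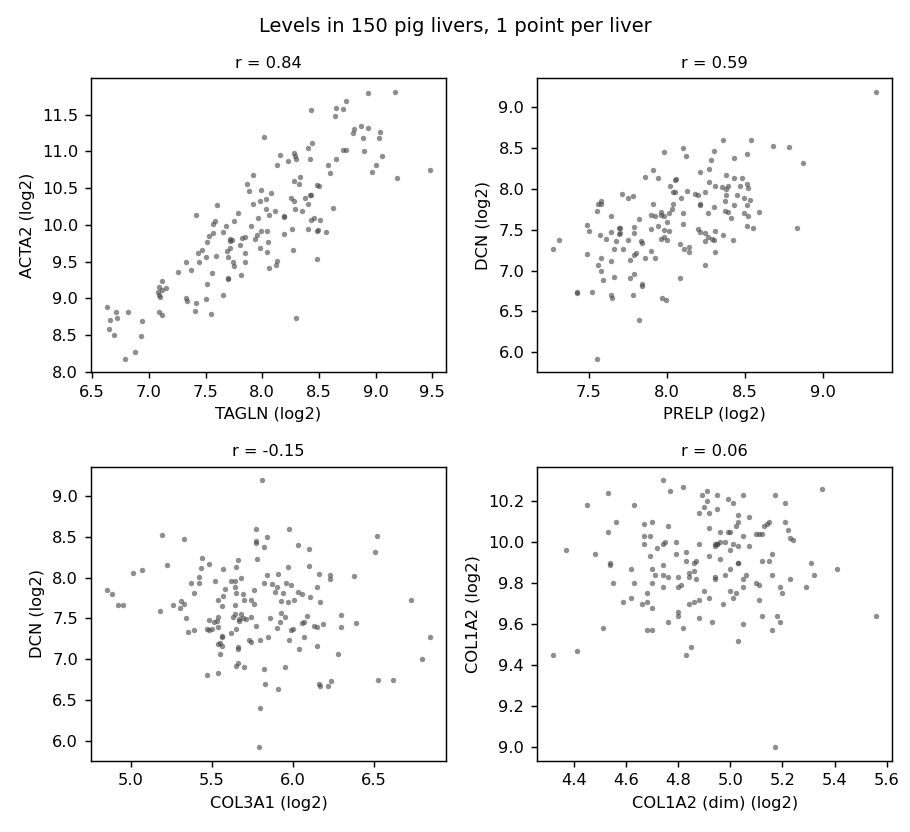
Levels of pairs of member probe sets on the log2 scale, 1 point per liver and 150 livers per panel, with r above each. ACTA2 rises with TAGLN (0.84) and DCN with PRELP (0.59), DCN shows no such rise with COL3A1 (-0.15), and the 2 COL1A2 probe sets are unrelated (0.06).

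Array measures moved with several members and are given beside the correlations. This was a family of 36 relations, 9 genes with the array median, the title number and the 3 prime to 5 prime log2 difference of the actin and GAPDH control probe sets, which grows as RNA degrades. MYO1C had r = -0.503 and rho = -0.477 with the array median (adjusted p = 0.00012 and 0.00018, permutation tests), and -0.482 without 2 livers. It also had r = -0.34 and rho = -0.321 with the actin difference (adjusted p = 0.000288 and 0.000792), and -0.299 without 2 livers. MYL9 had r = -0.252 and rho = -0.269 with the actin difference (adjusted p = 0.00684 and 0.00463), and -0.225 without 2 livers. COL3A1 had r = -0.2 and rho = -0.24 with it (adjusted p = 0.0348 and 0.00942), and -0.192 without 2 livers. With the GAPDH difference MYO1C had r = -0.323 and rho = -0.34 (adjusted p = 0.00042 and 0.00018), and -0.324 without 2 livers. MYL9 had r = -0.217 and rho = -0.26 with it (adjusted p = 0.02 and 0.00508), and -0.236 without 2 livers. COL1A2 had r = -0.215 and rho = -0.225 with it (adjusted p = 0.0221 and 0.0146), and -0.202 without 2 livers. ACTA2 passed with it by r alone, at r = -0.223 and rho = -0.172 (adjusted p = 0.018 and 0.073), and -0.215 without 2 livers. The part of RNA quality in these members was not tested. COL3A1 went the other way with the array median, at r = 0.463 and rho = 0.464 (adjusted p = 0.00012 and 0.00018), and 0.419 without 2 livers. ACTA2 had r = -0.357 and rho = -0.318 with it (adjusted p = 0.00027 and 0.00084), and -0.319 without 2 livers. TAGLN had -0.264 and MYL9 -0.284. DCN had r = 0.14 and rho = 0.165 (adjusted p = 0.134 and 0.0792) and PRELP r = -0.143 and rho = -0.16 (adjusted p = 0.126 and 0.0836), neither past the test.

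The title number went with PRELP, ACTA2 and TAGLN by both measures, and with MYL9 and MYO1C by r alone. PRELP had r = 0.352 and rho = 0.339 with it (adjusted p = 0.00012 and 0.00018), and 0.343 without 2 livers. ACTA2 had r = 0.305 and rho = 0.27 (adjusted p = 0.000514 and 0.00437), and 0.308 without 2 livers. TAGLN had r = 0.244 and rho = 0.258 (adjusted p = 0.00795 and 0.00508), and 0.268 without 2 livers. MYL9 had r = 0.189 and rho = 0.163 (adjusted p = 0.0404 and 0.0792), and 0.182 without 2 livers. MYO1C had r = 0.182 and rho = 0.118 (adjusted p = 0.0495 and 0.208), and 0.179 without 2 livers. Title blocks held 22.1% of the variance of ACTA2, 19.4% of that of PRELP, and between 7.74% and 14.1% of that of the other members.

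The next question was which other transcripts followed each member. Every probe set was fitted on the level of a member with limma, and a call needed a p below 0.05 after Benjamini-Hochberg adjustment over the whole table. LUM was followed by 0% of 23998 probe sets, with 2604 at an unadjusted p under 0.05, and DCN by 2.3%. PRELP was followed by 25.5%, COL1A2 by 26.5%, TAGLN by 31.1%, MYL9 by 32.2%, ACTA2 by 34.7%, COL3A1 by 36.4% and MYO1C by 50.5%. DCN was thus the member with the smallest set of called companions apart from LUM. Probe sets of 1 array share its scaling. With the array median as a covariate ACTA2 was followed by 457 probe sets in place of 8339, COL3A1 by 1090 in place of 8736 and MYO1C by 4416 in place of 12124, while DCN was followed by 1689 in place of 552.

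DCN rose with other genes of the extracellular matrix. Of 27 other matrix genes measured, 18 rose with DCN, 0 fell and 9 did not pass, against 2.13% of all probe sets higher and 0.167% lower. The median r of the 27 with DCN was 0.389. SPARC, a collagen-binding glycoprotein, had r = 0.706 with DCN (slope 0.29 ± 0.024 (SE) log2 per SD of DCN, adjusted p = 2.52e-20 by limma). DPT, dermatopontin, had r = 0.703 (adjusted p = 3.93e-20), THBS2, thrombospondin 2, r = 0.689 (adjusted p = 1.51e-18), and COL6A3, a chain of collagen VI, r = 0.667 (adjusted p = 2.33e-17). Given the array median, 19 of the 27 rose and 0 fell, against 4.83% and 2.21% of all probe sets. Of the 25 other contractile genes 3 rose with DCN and 0 fell, and 6 rose and 0 fell given the array median.

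Some genes that process collagen, turn over matrix or mark fibroblasts rose with DCN too. Of 11 collagen processing genes 3 rose with DCN and 0 fell, and 6 rose given the array median. The 3 were LOXL1, a collagen and elastin cross-linking oxidase (r = 0.468), CRTAP, a partner of prolyl hydroxylation (r = 0.416), and SERPINH1, the collagen chaperone HSP47 (r = 0.396). Of 13 matrix turnover genes 3 rose and 0 fell, CTSK, cathepsin K (r = 0.482), MMP2, a gelatinase (r = 0.454), and TIMP1, a protease inhibitor (r = 0.323). Of 8 stellate cell and fibroblast markers 4 rose and 0 fell. VIM, vimentin, had r = 0.568, PDGFRB, the PDGF receptor of mesenchymal cells, r = 0.381, and IGFBP6 and IGFBP5 r = 0.368 and 0.281. With the array median as a covariate CYGB, a globin of stellate cells, fell with DCN (r = -0.261) while the 4 rose.

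Markers of other cell types were counted with DCN beside the same shares of all probe sets. These were 2.13% higher and 0.167% lower, or 4.83% and 2.21% given the array median. Of 14 endothelial markers 2 rose with DCN, PECAM1 (r = 0.327) and VWF (r = 0.308), and of 5 bile duct markers 2 rose, KRT19 (r = 0.299) and EPCAM (r = 0.295). These cells lie with fibroblasts in the portal tract, and their part in the DCN values was not tested. Of 9 macrophage, 8 skeletal muscle, 10 hepatocyte, 3 red blood cell, 3 adipocyte and 2 mesothelial markers 0 passed in either direction. In lists this short such counts are near the shares of all probe sets. With that covariate 2 hepatocyte markers fell with DCN, CPS1 (r = -0.274) and FGB (r = -0.259), and 1 adipocyte marker rose, CFD (r = 0.331). TGF beta signalling is the main pathway known to induce fibrillar collagen in stellate cells. None of its 9 genes measured passed with DCN in either fit. That count too is near the shares of all probe sets, so it says nothing about the pathway.

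PRELP rose with matrix genes and with genes of other lists. Of the 27 other matrix genes 18 rose with PRELP and 0 fell, against 13.6% of all probe sets higher and 11.9% lower. COL6A3 had r = 0.755 with PRELP, COL6A2 0.747 and SPARC 0.741. COL5A1, a chain of collagen V, had 0.633. Of the 11 collagen processing genes 8 rose with PRELP, of the 25 other contractile genes 13, and of the 14 endothelial markers 8, with 1 lower. Of the 9 macrophage markers 3 rose with PRELP and 1 fell, of the 10 hepatocyte markers 4 rose and 2 fell, and of the 5 bile duct markers 2 rose. Stellate cell and fibroblast markers had 4 of 8 higher and 1 lower, and skeletal muscle markers 0 of 8 higher and 2 lower. Given the array median 19 of the 27 matrix genes rose and 0 fell, against 10.5% and 5.15% of all probe sets. In that fit 1 of the 9 macrophage markers rose and 0 fell. The part of these cells in the PRELP values was not tested.

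ACTA2 rose with genes of the smooth muscle contractile apparatus. Of 25 other contractile genes 15 rose with ACTA2, 1 fell and 9 did not pass, against 12.6% of all probe sets higher and 22.1% lower. TPM2, the beta tropomyosin, had r = 0.872 with ACTA2 (slope 0.38 ± 0.018 (SE) log2 per SD of ACTA2, adjusted p = 1.1e-43 by limma). CNN1, the smooth muscle calponin, had r = 0.713 (adjusted p = 3.54e-21), PPP1R14A, an inhibitor of myosin phosphatase, r = 0.534, and PDLIM7, a LIM domain protein of actin filaments, r = 0.502. CALD1, caldesmon, fell with ACTA2 (r = -0.425). Given the array median, 12 of the 25 rose and 0 fell, against 1.38% of all probe sets higher and 0.525% lower. TPM2 then had r = 0.856 and CNN1 r = 0.675.

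Matrix genes also rose with ACTA2, and the difference from DCN was not tested. Of the 27 other matrix genes 13 rose with ACTA2 and 2 fell. EFEMP2, an elastic fibre protein, had r = 0.474 with ACTA2, COL5A1 0.397, COL4A2, a basement membrane collagen chain, 0.391 and TNXB, tenascin X, 0.382. With the covariate 11 rose and 0 fell. Of the 11 collagen processing genes 8 rose with ACTA2 and 1 fell, against 12.6% of all probe sets higher and 22.1% lower. Of the 13 matrix turnover genes 5 rose and 1 fell. Given the array median 1 collagen processing gene and 2 matrix turnover genes rose and 0 fell, against 1.38% and 0.525%. Of the 8 stellate cell and fibroblast markers PDGFRB (r = 0.494) and IGFBP6 (r = 0.322) rose with ACTA2 and CYGB fell (r = -0.269), and given the array median 1 rose, PDGFRB (r = 0.399).

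Markers of other cells are counted with ACTA2 beside the same shares of all probe sets, 12.6% higher and 22.1% lower, which several of the counts lie near. Of 14 endothelial markers 6 rose and 1 fell, with ESAM (r = 0.395), VWF (r = 0.342) and CLDN5 (r = 0.295) the highest, and given the array median 1 passed, VWF (r = 0.273). Of 9 macrophage markers TYROBP (r = 0.346) and FCER1G (r = 0.268) rose and CD163 (r = -0.26) fell. Of 5 bile duct markers KRT19 (r = 0.204) and SOX9 (r = 0.216) rose, and of 3 adipocyte markers CFD (r = 0.282) rose. Of 3 red blood cell markers AHSP (r = 0.207) rose and HBB (r = -0.342) fell. Of 10 hepatocyte markers CPS1 (r = -0.261) and FGB (r = -0.251) fell. Given the array median 0 of the 9 macrophage, 5 bile duct, 3 adipocyte, 3 red blood cell and 10 hepatocyte markers passed with ACTA2. Of 8 skeletal muscle markers 0 passed with ACTA2 in either fit. In TGF beta signalling 2 of 9 genes rose and 3 fell, and 0 passed given the array median. The 3 that fell were SMAD4 (r = -0.423), TGFBR1 (r = -0.375) and INHBA (r = -0.271). The list had no common direction, with a median r of -0.0035 with ACTA2 and a positive slope in 4 of the 9 genes.

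**Figure D4:**
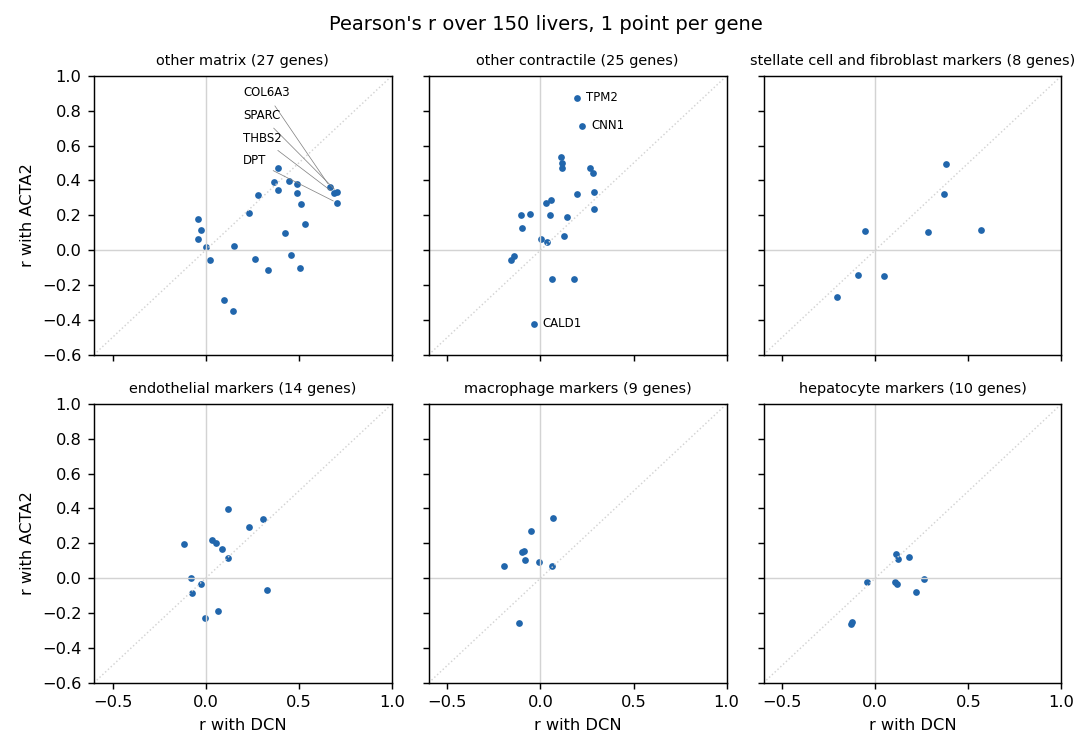
Pearson's r over the 150 livers of each measured gene of 6 lists with DCN (x axis) and with ACTA2 (y axis), 1 point per gene. Other matrix genes reach 0.706 with DCN and 0.474 with ACTA2, while in the contractile list TPM2 and CNN1 reach 0.872 and 0.713 with ACTA2.

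For the collagen probe sets the counts of matrix genes were near those of all probe sets. Of the 27 other matrix genes 5 rose with COL3A1 and 3 fell, against 23.6% of all probe sets higher and 12.8% lower. With the array median as a covariate 1 rose with COL3A1 and 0 fell, against 3.09% and 1.45%. With COL1A2 5 rose and 2 fell, against 16.4% and 10.1%. COL5A1, whose product joins fibrils of collagens I and III, had r = -0.227 with COL3A1 and 0.0415 with COL1A2, and COL6A3 had -0.212 and -0.0558. The 5 that rose with COL1A2 were VCAN (r = 0.474), COL5A2 (r = 0.409), COL8A1 (r = 0.336), NID2 (r = 0.212) and THBS1 (r = 0.201). The 2 that fell with it were COL4A2 (r = -0.256) and LAMB2 (r = -0.211). Of the 9 macrophage markers 6 fell with COL3A1 and 0 rose, and with the array median as a covariate 1 fell and 8 did not pass. The genes most like COL3A1 were FBXW7, a ubiquitin ligase subunit (r = 0.623), and NCK1, an adaptor protein (r = 0.587). Those most like the brighter COL1A2 probe set were FOXP3 (r = 0.729), a factor of regulatory T cells, and MC4R (r = 0.694), a melanocortin receptor. For the dim COL1A2 probe set they were CXCL12, a stromal chemokine (r = 0.454), LEPROT (r = 0.44) and NID2, a basement membrane protein (r = 0.44).

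The genes of most like pattern were taken as those of highest r over the 150 livers among 6756 other named genes, and these r values are a description. For DCN they were CCDC80, a matrix protein (r = 0.731), SPARC, DPT, THBS2 and SERPINE2, a protease inhibitor (r = 0.679). For PRELP they were LOC100623720 (r = 0.781), COL6A3, COL6A2, SPARC and FHL2, a LIM domain protein (r = 0.733). For ACTA2 they were TPM2, CNN1, MYADM, a membrane protein (r = 0.703), PKIG, a protein kinase inhibitor (r = 0.699), and FHL1, a LIM domain protein of muscle (r = 0.689). The same 5 genes led for TAGLN, with TPM2 at 0.833, MYADM at 0.754, CNN1 at 0.75, FHL1 at 0.619 and PKIG at 0.603. For MYL9 they were TPM2 (r = 0.644), CNN1 (r = 0.644), MYADM (r = 0.613), BGN, biglycan (r = 0.585), and FLOT2 (r = 0.582). For MYO1C they were MYADM (r = 0.698), SELENON (r = 0.691), SH3BGRL3 (r = 0.678), RNF5 (r = 0.673) and CHID1 (r = 0.672), with no smooth muscle contractile gene among the 5. For LUM the highest was SERPINB7 (r = 0.355). With MYO1C 12 of the 25 other contractile genes rose and 4 fell, against 19.9% of all probe sets higher and 30.6% lower. Of the 9 macrophage markers 7 rose with it and 1 fell. Collagen processing had 8 of 11 higher and 1 lower, and endothelial markers 7 of 14 higher and 2 lower. Given the array median 12 contractile genes and 3 macrophage markers rose and 0 fell, against 11% and 7.43%.

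At the other end, the lowest r was -0.381 for DCN (PTOV1), -0.513 for ACTA2 (PABPC1, the poly(A) binding protein) and -0.661 for MYO1C (RSRP1). Next to lowest were ECI2 for DCN (r = -0.299), TMCO1 for ACTA2 (r = -0.497) and PPP1CC for MYO1C (r = -0.608).

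The relation to drip loss was then described. A slope is the change of the log2 level per SD of drip loss in all 150 pigs. With drip loss 0% of the 23999 probe sets passed limma's test, and 2638 had an unadjusted p under 0.05, so no member passed. The contractile genes, PRELP and MYO1C had negative slopes. ACTA2 had a slope of -0.20 (SE 0.064) and TAGLN of -0.15 (SE 0.049). MYL9 had -0.10 (SE 0.023), MYO1C -0.09 (SE 0.019) and PRELP -0.11 (SE 0.028), the 3 members of highest rank in p. All of these slopes are a description, since the members were listed with this relation in view.

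In the 30 pigs with the highest drip loss, which averaged 8.52%, ACTA2 was at 8.49 in the lowest liver, 9.82 at the median and 11.04 in the highest. In the 30 pigs with the lowest drip loss, which averaged 2.58%, it was at 8.69, 10.24 and 11.59. The means were 9.77 ± 0.72 and 10.33 ± 0.711 (SD, n = 30 each), a ratio of 0.677, and the ranges overlapped over most of their width. TAGLN averaged 7.8 ± 0.68 in the pigs of high drip loss and 8.22 ± 0.544 in those of low drip loss, a ratio of 0.745. MYL9 averaged 7.28 ± 0.323 and 7.56 ± 0.321, a ratio of 0.824. MYO1C averaged 7.06 ± 0.228 and 7.32 ± 0.236, a ratio of 0.838, and PRELP 7.94 ± 0.302 and 8.2 ± 0.4, a ratio of 0.836. In each of these genes the 2 sets of pigs overlapped.

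The other matrix members had slopes between -0.04 and 0.03 on drip loss, and none passed. DCN had a slope of -0.03 (SE 0.041, 95% interval -0.11 to 0.05, adjusted p = 0.78), COL3A1 -0.04 (SE 0.03, -0.10 to 0.02, adjusted p = 0.633) and LUM -0.03 (SE 0.026, -0.08 to 0.02, adjusted p = 0.628). The brighter COL1A2 probe set, whose SD over livers was small, had 0.03 (SE 0.017, -0.00014 to 0.068, r = 0.162, adjusted p = 0.457). The dim one had -0.03 (SE 0.018, -0.064 to 0.0075, r = -0.127, adjusted p = 0.547). DCN averaged 7.62 ± 0.443 in the pigs of high drip loss and 7.68 ± 0.518 in those of low drip loss (SD, n = 30 each). None of 27 other matrix genes and none of 25 other contractile genes passed, and their median slopes were -0.02 each, against 0.0043 over all probe sets. The smallest adjusted p among the genes of all lists was that of TPM2, the gene most like ACTA2, at 0.307 (slope -0.13, SE 0.034).

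The title number went with the levels of these members, so values within blocks stand beside the slopes. With block means removed the slope was -0.12 (SE 0.067) for ACTA2, -0.10 (SE 0.053) for TAGLN, -0.08 (SE 0.025) for MYL9, -0.09 (SE 0.021) for MYO1C and -0.08 (SE 0.029) for PRELP. The slope was negative in 8 of 10 blocks for ACTA2, from -0.294 to 0.686, in 7 for TAGLN, in 8 for MYL9, in 7 for MYO1C and in 9 for PRELP. The title spline, the array median and the actin difference were also used as covariates together, an alternative chosen after seeing the data. The slope was then -0.12 (SE 0.066) for ACTA2, -0.07 (SE 0.051) for TAGLN and -0.06 (SE 0.024) for MYL9. It was -0.05 (SE 0.018) for MYO1C and -0.07 (SE 0.029) for PRELP. Each was smaller in size than without covariates. The part of these measures in the slopes was not tested.

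The slopes were also fitted with the level of another member held constant. Given the level of MYO1C the slope was -0.05 for ACTA2, -0.02 for TAGLN, -0.03 for MYL9 and -0.05 for PRELP. Given the level of TAGLN it was -0.06 for MYO1C, -0.05 for MYL9, -0.07 for PRELP and -0.04 for ACTA2. These values describe the overlap and carry no test.

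With fat area 0.125% of the 23999 probe sets passed, and of the 11 member probe sets 0 did. All slopes of the brighter probe sets lay between -0.04 and 0.01 log2 per SD of fat area. ACTA2 had -0.0032 (SE 0.066, 95% interval -0.134 to 0.128, adjusted p = 0.997 by limma), TAGLN -0.01 (SE 0.05, -0.113 to 0.085) and DCN -0.03 (SE 0.041, -0.109 to 0.052). MYL9 had 0.01 (SE 0.024, adjusted p = 0.99) and MYO1C 0.01 (SE 0.02, adjusted p = 0.98), while PRELP had -0.0056 (SE 0.029). COL3A1 had -0.04 (SE 0.03, adjusted p = 0.901). The interval of ACTA2 was the widest of the members, and those of COL1A2 (-0.036 to 0.034), MYO1C (-0.027 to 0.053) and MYL9 (-0.036 to 0.061) were narrower. None of the 27 other matrix and 25 other contractile genes passed with fat area.

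The difference between the slopes on the traits was tested with both traits in 1 model. It was past the test in 0.00833% of probe sets, and in 0 of the 11 member probe sets. For the members this difference is a description, since it holds the drip loss slopes that were in view when they were listed. The drip loss slope minus the fat area slope was -0.18 for ACTA2 (SE 0.088, 95% interval -0.36 to -0.01, adjusted p = 0.62) and -0.12 for TAGLN (SE 0.067, adjusted p = 0.678). For DCN it was -0.0024 (SE 0.055, adjusted p = 0.997).

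**Figure D5:**
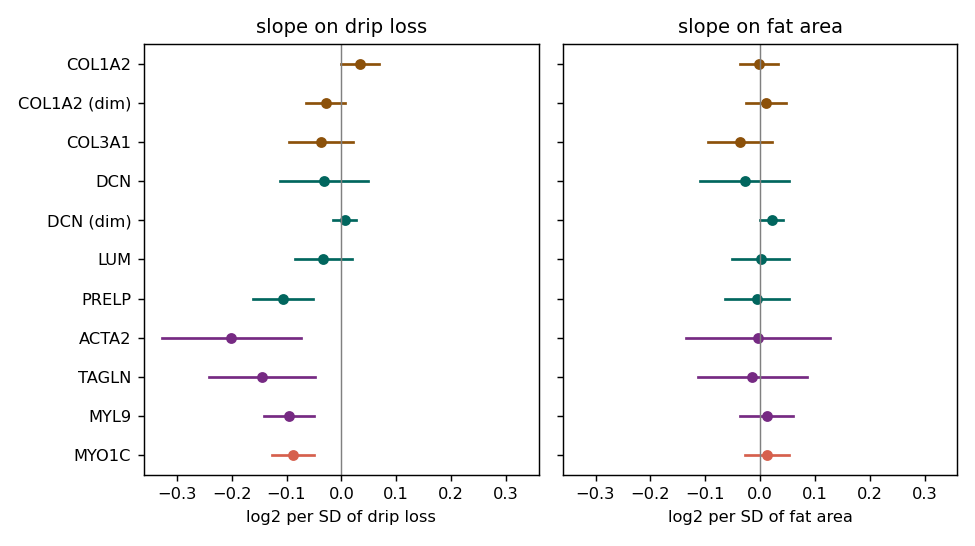
Slope of each member probe set (rows) on drip loss (left) and on fat area (right), in log2 per SD of the trait over 150 pigs, with 95% intervals from limma. The contractile genes, MYO1C and PRELP lie between -0.20 and -0.09 for drip loss, and all rows lie near 0 for fat area. The drip loss intervals are a description, since members were listed with those slopes in view, and 0 probe sets passed for drip loss.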

How the data were processed

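The authors deposited 1 log2 value for each probe set and pig, rounded to hundredths, and the log base is inferred from the range of the values. GCOS 1.1.1 stands in the submitters' processing notes. How probes were summarised, background-corrected and normalized is not given in the sources used here. Of 24123 probe sets, 124 controls were left out. Of the 23999 tested, 10069 had 1 symbol, updated by Entrez ID for 9961, 198 had several and 13732 none. A gene with several probe sets was taken by its brightest. Slopes were fitted on the whole table with limma 3.58.1 (lmFit, eBayes with trend) in R 4.3.3, two-sided, with Benjamini-Hochberg adjustment over all probe sets. The fit was also run on simulated data in which probe sets vary independently. Probe sets of these arrays vary together, so that run cannot vouch for the calls. Where a sentence gives an adjusted p for a gene followed by a member, it comes from limma with that member's level as predictor. The pigs are separate animals, so p-values measure the spread between pigs, and the number of arrays limits the precision.

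The members and lists were chosen with earlier results of these data known. Genes named are the members, up to 4 genes per list of largest absolute r with DCN and with ACTA2, the 5 genes most like each member, and for DCN, ACTA2 and MYO1C the 2 least like. The rule had named COL1A1 as an anchor. It has no probe set, and DCN was used in its place after seeing the values, so 36 pairs were tested. Chosen after their values were seen were COL5A1 and COL6A3 with the collagens, COL5A1 with PRELP, CALD1, CLDN5, FCER1G, IGFBP6, INHBA, KRT19, SOX9, AHSP and CFD with ACTA2, CYGB, CPS1, FGB and CFD with DCN given the array median, and TPM2 with drip loss. The matrix genes named as rising or falling with COL1A2 were also chosen after their values were seen. The mesothelial, red blood cell and adipocyte lists held 2, 3 and 3 measured genes.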

Additional observations from a re-analysis of the deposited data

How the results depend on the processing

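No paired analysis was possible because the labels give a single group. The number of probe sets called for drip loss was 0 under all 11 alternatives run, with 2638 at an unadjusted p under 0.05 in the fit as reported. For fat area it was 30, and 46 without the 13 arrays that stand apart, 59 with the array median as a covariate, 1 with the Y-linked mean, 11 with normal scores and 91 with 3 technical covariates together, the last chosen after seeing the data. The Y-linked mean is the mean level of the 2 Y-linked genes measured, a stand-in for sex, which the labels do not name. With it the fat area count went from 30 to 1, and the part of sex in those calls was not tested. No member slope on fat area passed the test under any alternative run. On drip loss none did either, and there the values are a description. All 99 alternative drip loss slopes of the members kept their sign, and for ACTA2 they ran from -0.21 to -0.12 and for MYO1C from -0.09 to -0.05, leaving out normal scores.

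Of 99 alternative fat area slopes 8 turned, all of them near 0. LUM had -0.00071 without the arrays that stand apart, -0.0038 without the 2 extreme pigs and -0.0011 with 3 technical covariates together. COL1A2 had 0.0116 with the Y-linked mean and 0.0049 as the mean of its probe sets. PRELP had 0.00604 with the Y-linked mean. ACTA2 had 0.0025 with normal scores and 0.00096 without the 2 extreme pigs.

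The count of called pairs stayed within 1.5 times of 16 under 8 alternatives. Of the alternative r values of called pairs 6 no longer passed, for DCN with ACTA2, COL1A2 with MYO1C and COL3A1 with MYO1C. Counts of probe sets going with a member moved by over 1.5 times with the array median as a covariate, to 9605 for COL1A2, 1090 for COL3A1, 1689 for DCN, 3766 for PRELP, 457 for ACTA2, 2939 for TAGLN, 3569 for MYL9 and 4416 for MYO1C. They also moved under quantile normalization to 10451 for PRELP and 12202 for MYL9, and with the title spline to 2943 for PRELP. The cause was not tested. Probe sets near the lowest value, LUM and the dim DCN probe set, can show little change.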
